A study of Mus musculus with 9 samples.

Results

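Cd2 and Pecam1 encode the adhesion receptors CD2 and CD31, whose extracellular parts are built of immunoglobulin folds. They were followed in mouse CD8 T cells on the GLYCOv4 array, an Affymetrix design for genes of glycan biology and of immune signalling. The probe sets were those whose RefSeq transcript belongs to Cd2 or Pecam1. This gave 1 probe set per gene, 2 of the 1246 on the array. The Cd2 probe set was designed on the single RefSeq transcript listed for the gene. The Pecam1 probe set carries the name of 1 of 4 listed transcripts, so the values do not separate CD31 isoforms.

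The cells were purified CD8 T cells of female B10D2 mice, and all 9 samples carried a transgenic T cell receptor, including the controls. Naive cells (3 arrays) were the control. Deletion cells (3 arrays) had met their antigen in the animal as a weak signal, which leads to loss of the cells, and anergy cells (3 arrays) had met it as a strong signal, which leads to unresponsive cells. Whether the numbered replicates were different mice or preparations of 1 pool is not stated in the labels, and the p-values reflect only the spread between arrays, which may be technical. The name of the receptor, the age of the mice and the time after antigen are not known from the labels.

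CD2 sits on T cells and natural killer cells and binds CD48 on other cells in the mouse. This contact brings the membranes of T cell and target close together, and the cytoplasmic tail of CD2 adds to the signal of the T cell receptor. CD31 is best known from the junctions of endothelial cells, and it is also carried by platelets, myeloid cells and part of the T cells. It binds CD31 on the neighbouring cell, and its tail holds inhibitory motifs that recruit the phosphatases SHP-1 and SHP-2, so in T cells it is known as a brake on receptor signalling.

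Both genes were chosen by their values in deletion against anergy, where earlier results of these arrays had them higher in deletion, so that difference is given here as a description with no test. The comparisons with naive cells were tested with limma, fitted over all probe sets and all 9 arrays. A change passed where the p-value adjusted by Benjamini-Hochberg was under 0.05. The arrays of deletion and anergy that served the choice also enter these comparisons, and both comparisons share the naive arrays. All values are log2 expression after RMA, so a difference of 1 is a factor of 2. In RNA of whole cell samples, fewer cells carrying a transcript and less of it per cell cannot be told apart.

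Cd2, the T cell adhesion receptor, was high in naive cells and fell under both antigen signals. Its log2 values were 11.68, 11.54 and 11.53 in naive replicates 1 to 3. In deletion cells they were 9.84, 9.82 and 10.38, and in anergy cells 9.33, 9.40 and 9.48. The 3 groups did not overlap: every naive array lay above every deletion array, and every deletion array above every anergy array. Over all probe sets, the replicates of naive and deletion did not overlap in 31.5%, and those of naive and anergy in 33.9%. Deletion replicate 3 stood above the other 2 deletion arrays, and the SD of the deletion group was 0.32 against 0.08 in naive and 0.08 in anergy.

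In deletion cells Cd2 was 2.97-fold lower than in naive cells (95% limits 2.41 to 3.66; 10.01 ± 0.32 against 11.58 ± 0.08 as mean ± SD of 3 arrays each; limma adjusted p = 1.7e-05). The gap between the lowest naive and the highest deletion array was 1.15 on the log2 scale. Of all 1246 probe sets, 19% passed in this comparison in either direction and 10.5% passed as lower. The fall of Cd2 was the 11th largest of the 1246 on the log2 scale. It became larger without deletion replicate 3, at -1.75 on the log2 scale against -1.57 with all arrays.

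Anergy cells showed a larger fall of Cd2. The transcript was 4.53-fold lower than in naive cells (95% limits 3.67 to 5.59; 9.40 ± 0.08 against 11.58 ± 0.08 as mean ± SD of 3 arrays each; limma adjusted p = 1.0e-06). Here 26.8% of the probe sets passed in either direction and 16.1% passed as lower, and the fall of Cd2 ranked 12th among the 1246. The fall passed in both comparisons under all 16 alternative settings. The log2 change ranged from -1.75 to -1.47 in deletion and from -2.23 to -2.13 in anergy.

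Pecam1, which encodes CD31, was higher than naive in deletion and, by a smaller and less stable difference, lower than naive in anergy. Its log2 values were 8.52, 8.62 and 8.49 in naive replicates 1 to 3. They were 8.97, 9.07 and 8.87 in deletion cells and 8.40, 8.28 and 8.06 in anergy cells. The naive arrays lay between the other groups with no overlap on either side. Over all probe sets, the replicates of naive and deletion did not overlap in 31.5%, and those of naive and anergy in 33.9%. The gap was 0.25 on the log2 scale to the lowest deletion array and 0.09 to the highest anergy array.

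**Figure D1:**
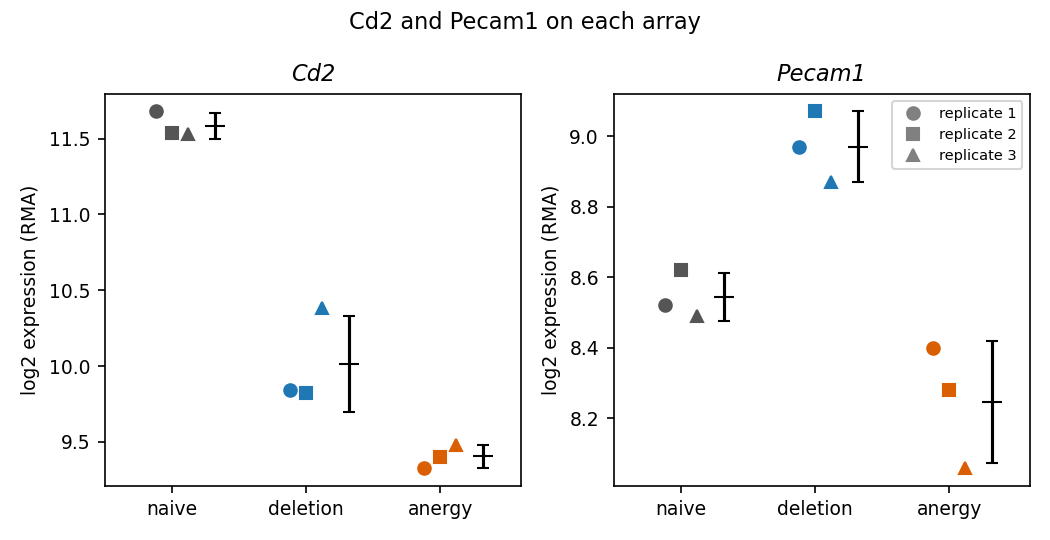
Log2 expression (vertical axis) of Cd2 and Pecam1 on each of the 9 arrays, by group, with the mean and SD of each group beside its points and each panel on its own scale that does not start at 0. Cd2 stepped down from naive (11.58) to deletion (10.01) to anergy (9.40), while Pecam1 was highest in deletion (8.97) and lowest in anergy (8.25).

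In deletion cells Pecam1 was 1.34-fold higher than in naive cells (95% limits 1.16 to 1.55; 8.97 ± 0.10 against 8.54 ± 0.07 as mean ± SD of 3 arrays each; limma adjusted p = 0.00846). In this comparison 8.51% of all probe sets passed as higher. The change was a modest one among the array's genes, the 84th largest rise of 1246. It passed in all 16 alternative settings, with log2 changes of 0.38 to 0.48 and adjusted p-values of 0.000243 to 0.0395.

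Anergy cells gave a smaller change of Pecam1 in the other direction, and it lay close to the threshold. The transcript was 1.23-fold lower than in naive cells (95% limits 1.06 to 1.42; 8.25 ± 0.17 against 8.54 ± 0.07 as mean ± SD of 3 arrays each; limma adjusted p = 0.0405), at a change of -0.30 ± 0.09 (SE) on the log2 scale. The sign held in 16 of 16 alternative settings, and the change passed in 6 of them. It did not pass after quantile normalization (-0.16, limma adjusted p = 0.0596) or median centring (-0.34, 0.0575), nor when only the 2 groups were fitted (0.0716) or the variance was not moderated (0.0947). It also did not pass without naive replicate 1 (0.0855), naive replicate 2 (0.139), naive replicate 3 (0.0658), deletion replicate 1 (0.0628), anergy replicate 2 (0.0749) or anergy replicate 3 (-0.20, 0.0920). Anergy replicate 3 held the lowest Pecam1 value of the 9 arrays and had the widest residual spread over all probe sets, an SD of 0.166 against 0.094 to 0.128 on the other arrays.

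In the comparison of weak with strong antigen signal, on which the design of the study turns, both receptors were higher in deletion cells. The deletion mean of Cd2 exceeded the anergy mean by 0.61 ± 0.14 (SE) on the log2 scale, a ratio of 1.53. For Pecam1 the difference was 0.72 ± 0.09, a ratio of 1.65. The closest arrays of the 2 groups were 0.34 apart for Cd2 and 0.47 apart for Pecam1, and over all probe sets the replicates of these groups did not overlap in 16.6%. Since this contrast chose the genes, nothing is read from the 2 members against that share or against the 3.37% of probe sets that passed.

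The similar difference between deletion and anergy was made up in another way in each gene. For Cd2 the deletion mean lay between naive and anergy, and both antigen-exposed groups were far below naive. For Pecam1 the naive mean lay between the others. Without deletion replicate 3, the array highest in Cd2, the difference of Cd2 was 0.43. For Pecam1 it was between 0.60, after quantile normalization, and 0.80 over the alternative settings.

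**Figure D2:**
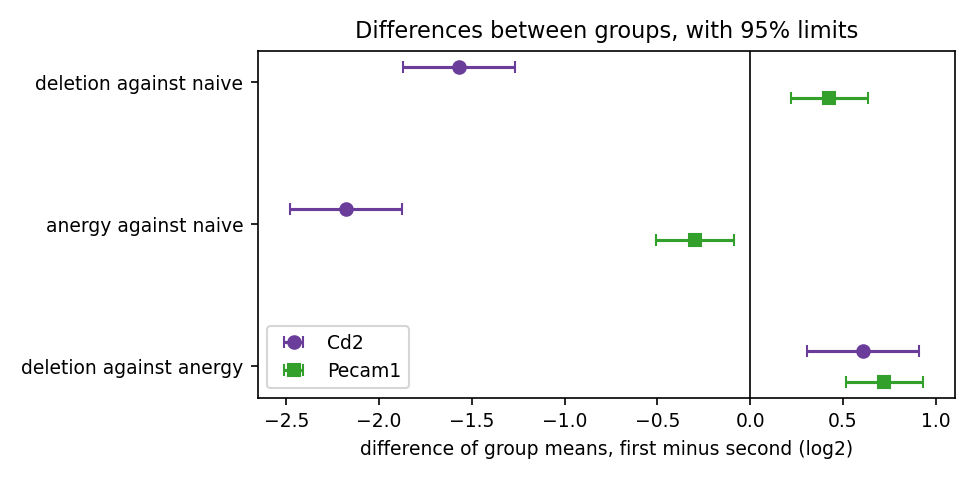
Differences of group means on the log2 scale (horizontal axis, first group minus second) for Cd2 (circles) and Pecam1 (squares) in the 3 comparisons, with 95% limits from limma. Cd2 lay at -1.57 and -2.18 against naive, Pecam1 at 0.43 and -0.30, and both were above 0 in deletion against anergy. That last contrast chose the genes, so its limits take no account of the choice and are not a test.

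**Figure D3:**
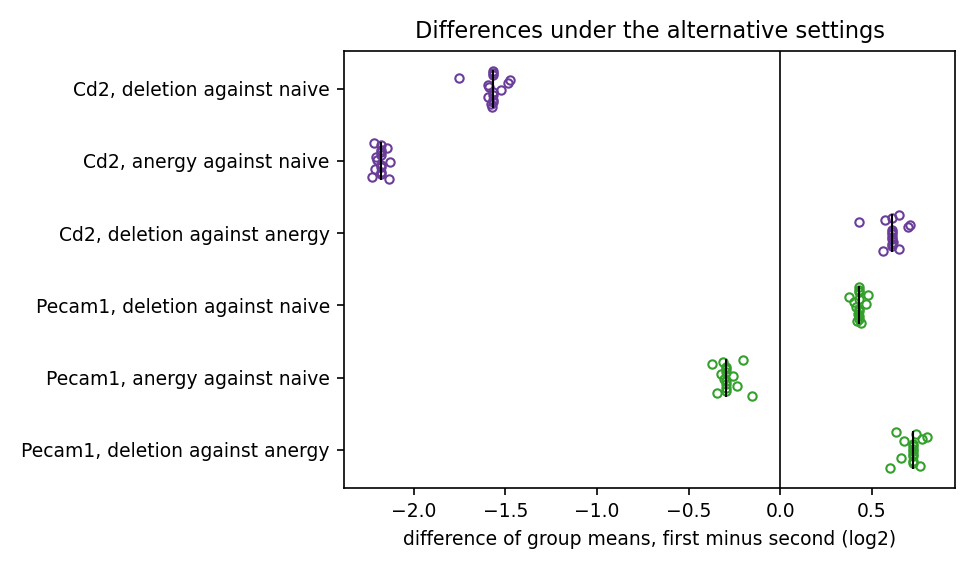
The same differences under the 16 alternative settings (open circles, spread vertically only for legibility), with the value from all arrays as deposited as a vertical bar. No value crossed 0, and the value nearest to it was that of Pecam1 in anergy against naive after quantile normalization (-0.16).

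The partners of these receptors were largely outside the measured genes. Of 12 genes of the CD2 family and its binding partners, Cd48 was the one with a named probe set, and of 6 partners of CD31 none had one. Cd48, the mouse ligand of CD2, had log2 values of 11.37, 11.39 and 11.32 in naive cells, 11.60, 11.63 and 11.53 in deletion cells and 11.63, 11.61 and 11.46 in anergy cells. Both antigen-exposed groups lay above naive, and they overlapped each other. The rise was 0.23 ± 0.07 (SE; limma adjusted p = 0.0364) in deletion and 0.21 ± 0.07 (adjusted p = 0.0417) in anergy. These small rises passed in 10 and 6 of 16 alternative settings, with adjusted p-values up to 0.131 and 0.217. Neither passed after median centring. The rise in deletion was no longer called when any 1 of the 3 naive arrays or deletion replicate 1 or 2 was left out. The rise in anergy was no longer called when any 1 array other than anergy replicate 3 was left out.

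Among 31 other adhesion molecules of the immunoglobulin fold, 8 were measured, and 2 of them fell in both comparisons with naive. Over all probe sets, 10.5% passed as lower in deletion and 16.1% in anergy. Icam1, a ligand of the integrin LFA-1, had values of 8.87, 8.94 and 8.63 in naive cells, 7.47, 7.59 and 7.56 in deletion cells and 7.59, 7.53 and 7.36 in anergy cells. It was 2.42-fold lower in deletion (limma adjusted p = 4.8e-06) and 2.50-fold lower in anergy (adjusted p = 3.0e-06). Icam2, a further ligand of LFA-1 that endothelial cells and lymphocytes carry, was 1.50-fold lower in deletion (adjusted p = 0.00229) and 1.61-fold lower in anergy (adjusted p = 0.000583). Its probe set can bind more than 1 transcript, by its suffix. Both genes passed in these comparisons under all 16 alternative settings.

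Between deletion and anergy, Icam1 differed by 0.05 ± 0.09 (SE) and Icam2 by 0.10 ± 0.10 on the log2 scale, and neither passed (limma adjusted p = 0.844 and 0.678). The 95% limits of these differences were -0.16 to 0.26 for Icam1 and -0.13 to 0.33 for Icam2. The sign of each difference was not the same in every alternative setting: it was kept in 13 of 16 for Icam1 and in 14 of 16 for Icam2.

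Of the pathway genes as a whole, 9 of 49 were measured, with Cd2 and Pecam1 left out. In deletion against naive 1 was higher and 2 were lower, and in anergy against naive 1 was higher and 2 were lower, which are Cd48, Icam1 and Icam2 both times. Over all probe sets, 8.51% passed as higher and 10.5% as lower in deletion against naive. In anergy against naive 10.8% passed as higher and 16.1% as lower. The median change was -0.04 and 0.06 on the log2 scale, beside -0.02 and 0.01 over all probe sets. In deletion against anergy limma called 0 of the 9, and the median was -0.01 beside -0.01 over all probe sets. In that comparison 3.37% of all probe sets passed in either direction and 2.09% passed as higher. Of the 9, 1 had an unadjusted limma p under 0.05: Siglec1, lower in deletion (-0.23). The share of all probe sets under that unadjusted bound is not given here.

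The remaining 6 genes, Vcam1 included, did not pass in any of the 3 comparisons. Madcam1, the ligand of a gut-homing integrin, lay between 5.43 and 5.74 on the 9 arrays. Mcam lay between 3.30 and 3.68, the sialic acid receptor Siglec1 between 4.23 and 4.60, and Mag, a sialic acid receptor of myelin, between 4.66 and 5.19. L1cam, a neural adhesion molecule that leukocytes can carry, was 0.31 ± 0.13 (SE) above naive in anergy cells (limma adjusted p = 0.110), and without anergy replicate 3 it passed at 0.42 (adjusted p = 0.0371).

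**Figure D4:**
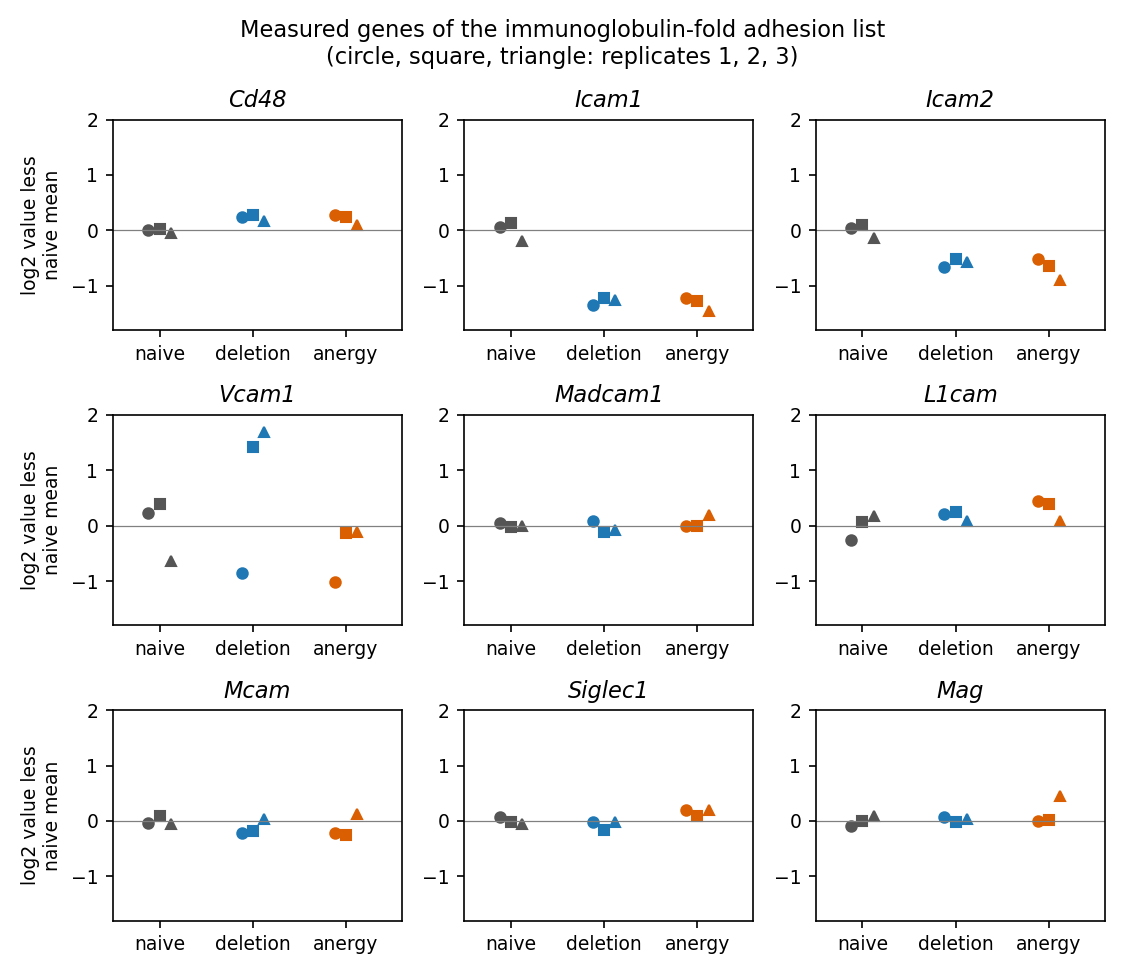
Log2 values of the 9 measured genes of the immunoglobulin-fold adhesion list on each array, less the mean of the naive arrays (vertical axis), by group and replicate. Icam1 and Icam2 lay lower in deletion and anergy, Cd48 slightly higher, and Vcam1 varied mostly between replicates.

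Vcam1, a ligand of the integrin VLA-4 that stromal, endothelial and macrophage cells carry, was split within the deletion group. Its values were 2.22, 4.50 and 4.77 in deletion replicates 1 to 3, 3.32, 3.48 and 2.45 in naive cells and 2.06, 2.96 and 2.97 in anergy cells. Without deletion replicate 1 it passed as higher than naive (1.55, limma adjusted p = 0.0154) and higher than anergy (1.97, adjusted p = 0.0226). The macrophage receptor gene Adgre1 showed the same split, with 2.12, 3.14 and 2.79 in deletion replicates 1 to 3. The mannose receptor gene Mrc1 had 3.07, 3.78 and 3.78 there, but naive replicates 1 to 3 varied about as much, at 3.53, 3.47 and 2.83. Its SD was 0.41 in deletion and 0.39 in naive cells.

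In deletion replicate 1, where Vcam1 and Adgre1 were the lowest of their group, Pecam1 was 8.97, between replicates 2 and 3. The genes with the split were named after their values were seen. The part of macrophages and other cells in the values of Pecam1 was not tested. Without deletion replicate 2 the rise of Pecam1 over naive was 0.38, and without deletion replicate 3 it was 0.48. Of 15 macrophage and dendritic cell markers 8 were measured. Csf1r was low in deletion replicate 1 as well, at 5.13 against 5.65 and 5.71 in replicates 2 and 3. Cd209a (4.93, 4.76 and 4.93), Clec10a (3.34, 3.33 and 3.41) and Siglec1 (4.38, 4.23 and 4.38) did not show the split, and Ly75 (5.97, 6.07 and 6.11) differed little. Ly75, an endocytic receptor of dendritic cells, was lower than naive in deletion (-0.60, limma adjusted p = 0.00199) and in anergy (-0.65, adjusted p = 0.000815). With all arrays it was the 1 of the 8 that passed. Over all probe sets, 19% passed in deletion against naive and 26.8% in anergy against naive, with 10.5% and 16.1% passing as lower. The summed level of the 8 ranged from 7.51 to 7.77 on the log2 scale in deletion, 7.54 to 7.59 in anergy and 7.84 to 7.90 in naive cells. Ly75 was the brightest gene in this sum.

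CD31 is also a marker of endothelial cells and platelets, so their other markers were read beside it. Of 14 endothelial markers other than Pecam1, 5 were measured. Endomucin, encoded by Emcn, lay between 3.09 and 3.36 on the 9 arrays, Sele, which encodes E-selectin, between 2.36 and 2.47, and Selp, which encodes P-selectin, between 4.05 and 4.38. The lowest value of any probe set was 1.67. The summed level of all 5 was 9.65 to 9.86 on the log2 scale in naive, 9.19 to 9.29 in deletion and 9.01 to 9.31 in anergy cells, and this sum is nearly all Icam2, whose fall is given above. Without Icam2 the other 4 gave 6.29 to 6.37 in naive, 6.20 to 6.36 in deletion and 6.34 to 6.43 in anergy cells. The part of endothelial cells in the values of Pecam1 was not tested. Of 10 platelet markers 3 were measured, and their sum lay between 5.47 and 5.59 in deletion, 5.55 and 5.70 in naive and 5.61 and 5.64 in anergy cells.

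Cd2 itself was the one gene of 9 CD8 T cell markers that was measured, so the identity of the cells could not be checked against other T cell genes. Of 8 B cell markers 4 were measured, and their summed level was 9.25 to 9.41 in naive, 8.66 to 9.17 in deletion and 8.55 to 8.76 in anergy cells. The single genes did not move together, and Cd72, at a mean of 8.87 the brightest of the 4 in naive cells, weighed most in the sum there. Cd72 was 2.96-fold lower than naive in deletion and 3.11-fold lower in anergy (limma adjusted p = 0.000101 and 5.5e-05). Cd22, an inhibitory sialic acid receptor, was 2.26-fold higher in deletion (adjusted p = 0.000413) and 1.97-fold higher in anergy (adjusted p = 0.00093). The chemokine receptor gene Cxcr5 was 1.56-fold higher in deletion (adjusted p = 0.0138), a call that held in 12 of 16 alternative settings. It was lost without naive replicates 1 or 3 or deletion replicate 3 (adjusted p = 0.0568 to 0.0626) and with no moderation (0.0774). Of 4 natural killer cell markers 2 were measured: Klra8, whose probe set can bind other transcripts by its suffix, and Klrk1. On the 9 arrays, with medians of 4.44 to 4.58, both were dim, at 3.07 to 3.58 and 2.78 to 3.74. Their sum was 4.07 to 4.30 in naive, 4.01 to 4.39 in deletion and 4.44 to 4.49 in anergy cells. In anergy against naive Klrk1 rose (0.79, limma adjusted p = 0.0014), while Klra8 had the other sign and did not pass (-0.15, adjusted p = 0.390). The part of these cells in the values of Cd2 and Pecam1 was not tested.

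Integrins and selectins, the adhesion receptors of other folds, gave a mixed picture: 6 of 18 were measured. Cd44, the hyaluronan receptor that rises on antigen-experienced T cells, was 3.61-fold higher in deletion and 3.91-fold higher in anergy than in naive cells (limma adjusted p = 2.9e-05 and 1.5e-05). Itgae, the integrin chain that binds E-cadherin, was lower than naive in both. The change was -4.66 on the log2 scale in deletion and -5.10 in anergy (limma adjusted p = 2.9e-10 and 1.2e-10). The remaining level was higher in deletion (5.44) than in anergy (4.99), by 0.44 ± 0.09 (SE; limma adjusted p = 0.0226). That last call held in 10 of 16 alternative settings, with adjusted p-values up to 0.0981. Among its losses were the fits without deletion replicates 2 or 3 or anergy replicates 2 or 3 (adjusted p = 0.0513 to 0.0819). In this list 1 gene was higher and 1 lower in deletion against naive, where 8.51% and 10.5% of all probe sets passed. In anergy against naive 1 was higher and 2 were lower, beside 10.8% and 16.1%. In deletion against anergy 1 of the 6 passed, as higher, beside 2.09%.

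Of 15 co-receptors of T cells with immunoglobulin folds, 1 was measured: Havcr2, which encodes the inhibitory receptor Tim-3. It differed between deletion and anergy in the direction opposite to that of Cd2 and Pecam1. Its values were 3.82, 3.78 and 3.96 in deletion cells, 4.35, 4.77 and 4.73 in anergy cells and 3.81, 3.59 and 3.86 in naive cells. Deletion cells overlapped naive cells, while anergy cells lay above both. Over all probe sets, anergy did not overlap naive in 33.9% and deletion in 16.6%. Deletion minus anergy was -0.76 ± 0.12 (SE) on the log2 scale (limma adjusted p = 0.00607), in a comparison where 3.37% of all probe sets passed. This call held in 15 of 16 alternative settings, with adjusted p-values up to 0.0807.

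The genes with profiles nearest to each receptor were found by the root mean square difference over the 9 arrays, after each gene's own mean was subtracted. For Cd2 they were Galnt6 (0.25 on the log2 scale), which starts O-GalNAc glycans, Agrn (0.26), Cd72 (0.29), which encodes an inhibitory receptor of B cells, Pkd1 (0.30) and Hs6st1 (0.30), a sulfotransferase of heparan sulfate. All 5 were lower in both antigen-exposed groups than in naive cells. Galnt6 went from 9.40 ± 0.08 (SD, n = 3 arrays) in naive to 7.93 ± 0.06 in deletion and 7.68 ± 0.06 in anergy. Agrn, the proteoglycan agrin, went from 6.67 ± 0.18 to 5.34 ± 0.12 and 4.80 ± 0.19.

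Of the 5 nearest to Pecam1, 4 are given: Fryl (0.15), St3gal4 (0.17), a sialyltransferase, Papss1 (0.17), which makes the sulfate donor, and Golm1 (0.19), a Golgi membrane protein. These 4 had their anergy mean below their deletion mean, and in 3 of them, St3gal4 being the exception, it was also below the naive mean. St3gal4 went from 6.42 ± 0.10 (SD, n = 3 arrays) in naive to 6.90 ± 0.17 in deletion and 6.46 ± 0.08 in anergy. Fryl went from 10.35 ± 0.10 to 10.46 ± 0.15 and 9.99 ± 0.24. Between Cd2 and Pecam1 the root mean square difference was 0.94.

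**Figure D5:**
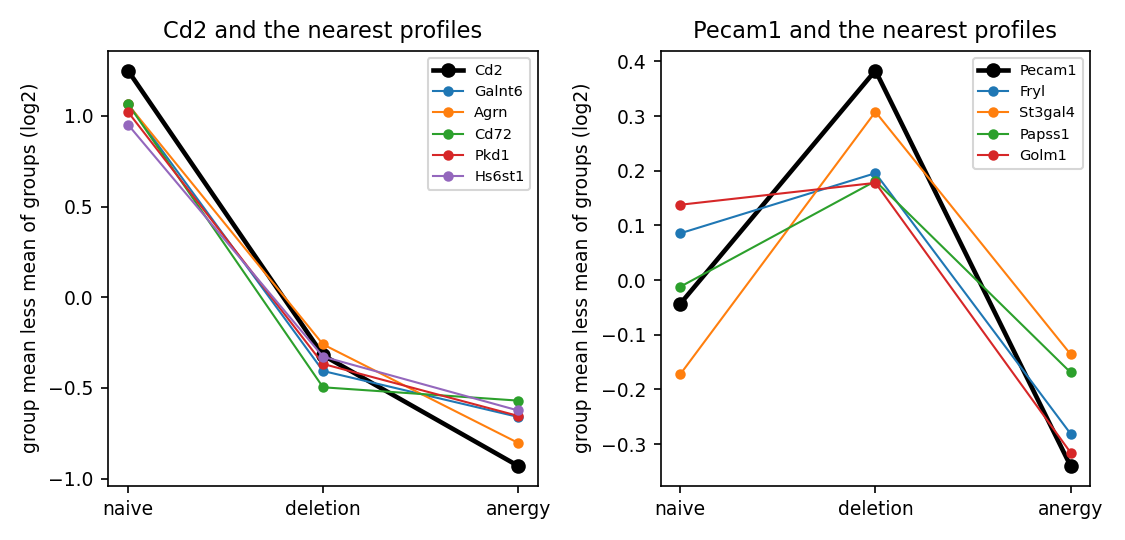
Group means on the log2 scale, less the mean of the 3 groups (vertical axis), for Cd2 and Pecam1 (black) and for genes with the nearest profiles, 5 for Cd2 and 4 for Pecam1. The genes near Cd2 stepped down from naive to anergy, and those near Pecam1 had their lowest mean in anergy except St3gal4, which was lowest in naive.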

How the data were processed

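The authors deposited 1 table of log2 values, 1 per probe set and array, made with RMA per the submitters' processing notes. Its version, and any annotation or filter, are not given in the sources used here. That the scale is log2 follows from the method and from values between 1.67 and 13.86. Array medians were 4.44 to 4.58. No detection column was used, so a fold change of a dim gene can understate the real one. Biotin-labelled cRNA was made from Trizol-extracted total RNA, per the labels' protocols. The number of arrays limits the precision.

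Probe sets were named through their RefSeq accession, without version, and a RefSeq gene table (GRCm38.p6, names only). This named 963 of 1246 (77.3%), as 909 genes. Where a listed gene had more than 1 probe set, the brightest on average stood for it. For the 3 comparisons, lmFit and eBayes of limma (version 3.58.1, R version 4.3.3) were run on the values as deposited, with the 9 arrays in 1 fit, without a block and with 6 residual degrees of freedom. Tests were two-sided and adjusted by Benjamini-Hochberg over 1246 probe sets. The fit was tested on simulated data. Named were both members, the listed adhesion genes that passed or bear on the members, and the 5 genes nearest to each member in profile, of which 1 is not reported here. Members and lists were chosen with earlier results of these data known. Same-numbered arrays of deletion and anergy deviated together from their group means (r = 0.195, 0.270 and 0.280). In the comparisons with naive r ran from -0.154 to 0.274. No r was computed for arrays of different number, so these values do not establish a pairing of replicates. The alternatives were 2 scalings, the 2 groups alone, a replicate block, array weights, a filter on dim probe sets, no moderation and leaving out each array. No array had the values of another.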

Additional observations from a re-analysis of the deposited data

How the results depend on the processing

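The 6 differences of Cd2 and Pecam1 kept their sign in all 16 alternative settings. The calls of Cd2 against naive and of Pecam1 in deletion against naive held in all of them. Pecam1 in anergy against naive passed in 6 and was lost after quantile normalization (-0.16), median centring (-0.34), in the 2 groups alone (-0.30) and with no moderation (-0.30, the same difference with a wider error). With 1 array left out its value ranged from -0.37 to -0.20, and the call was lost without 6 of the 9 arrays. The cause was not tested. With a replicate block the same call held (limma adjusted p = 0.0170), Cd2 in deletion against anergy stayed at 0.61 and Pecam1 at 0.72, and no call of either member changed. Pecam1 in deletion against anergy was 0.60 after quantile normalization. The count over the whole array in deletion against anergy was 42, with 26 higher and 16 lower. After quantile normalization 32 were higher and 38 lower (70), and after median centring 13 and 13 (26). The list count in deletion against anergy was 0 to 1 with 1 array left out, the 1 being Vcam1 without deletion replicate 1. No fit with other probe sets of the members was run, since each has 1. The 3 arrays per group and the missing measure of background limit what can be said of small changes of dim genes.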

Other observations

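Clec4n, a lectin receptor of macrophages and dendritic cells, was split within the deletion group in the same way as Vcam1, with log2 values of 3.29, 3.72 and 3.81 in deletion replicates 1 to 3 beside 3.27 to 3.47 on the other 6 arrays. Without deletion replicate 1 it passed as higher in deletion than in naive (0.36, limma adjusted p = 0.0172) and in anergy (0.40, adjusted p = 0.0413). Adgre1 did so too, at 0.54 (adjusted p = 0.0189) and 0.63 (adjusted p = 0.0376). With all arrays neither passed. Of the 8 macrophage and dendritic cell markers measured, Siglec1, Cd209a and Clec10a did not show this split. Ly75 differed little, at 5.97, 6.07 and 6.11 in deletion replicates 1 to 3, and Mrc1 varied about as much in naive as in deletion cells. These genes were chosen after their values were seen.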
